A study of Rattus norvegicus with 64 samples.

Results

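The gene expression of the bladder wall rebuilt with a graft that had carried adipose-derived stromal cells (ASCs) was compared with that of the wall rebuilt with the bare graft, 180 days after surgery. The comparison took all arrays whose labels name these 2 groups, 16 of the 64 arrays of the series. Each array held the RNA of 1 rat, with 8 rats that had received bladder acellular matrix (BAM) seeded with ASCs and 8 rats that had received BAM only. All recipients were syngeneic male Wistar rats in which part of the bladder had been removed (hemicystectomy) and replaced by a graft of about 1 cm2. BAM is bladder wall from which the cells have been washed out. The ASCs, which the labels call ADSCs, came from retroperitoneal fat of male Wistar rats aged 10 weeks and were grown to the third passage before they were put on the matrix. The sources used here differ on whether these were other rats or the recipients themselves. No label or file marks the seeded cells, so the arrays do not tell their RNA from that of the other cells.

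An augmented bladder wall has to be refilled by urothelium on the luminal side, by smooth muscle, by stroma and by vessels. Stromal cells of fat can turn into adipocytes in culture and release factors that act on endothelium. Adipocytes are recognised by secreted proteins such as adiponectin, resistin and adipsin and by proteins of the lipid droplet, and their genes are switched on by the nuclear receptor PPARγ, which binds pairs of a short motif. Endothelial cells are recognised by receptors for growth factors (Kdr, Tek), by junction proteins (Pecam1, Cdh5) and by von Willebrand factor (Vwf). The comparison asks in which of these respects the seeded and the unseeded wall still differed at the last day of follow-up.

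The gene spots well above background made up between 55.3% and 59.9% of the spots on the arrays of BAM seeded with ASCs and between 45.0% and 62.4% on those of BAM. BAM replicates 7 and 8 had the lowest shares. The difference of the means was 0.68 percentage points (two-sided exact permutation test, n = 8 against 8, p = 0.754). The median background of the arrays was lower with ASCs, at 136 ± 11.8 against 156 ± 9.97 intensity units (SD, n = 8 each, exact permutation p = 0.00404, 0.0242 after adjustment over 6 measures of the arrays). Each group lay on a slide of its own, so slide and group cannot be told apart in any value below. Levels are on a log2 scale on which 0 is the 75th percentile of the array, and differences are BAM seeded with ASCs minus BAM.

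The genes called here are differentially expressed genes (DEGs) with an adjusted p-value below 0.01 and a change of more than 1.5-fold. At 180 days the DEGs were nearly all higher with ASCs. Of 13409 probes tested, 664 (4.95%) were higher and 4 (0.0298%) were lower in bladders reconstructed with BAM seeded with ASCs, 668 (4.98%) in all. The higher probes had a median log2 difference of 0.83, against 0.03 over all probes tested, and 211 of them rose by more than 2-fold. Without the fold threshold, 1336 probes (9.96%) were higher and 288 (2.15%) lower at an adjusted p below 0.05. With the fold threshold these were 738 (5.5%) and 25 (0.186%). A positive difference, called or not, was found in 54.7% of the probes. On 540 probes (4.03% of those tested) all 8 seeded arrays lay above every BAM array, and 22 probes (0.164%) showed the opposite. With BAM replicates 7 and 8 left out, 628 probes were higher and 4 lower. The filter did not treat the groups evenly. It let in 2073 probes through the seeded arrays alone, of which 211 were called higher and 1 lower. Through the BAM arrays alone it let in 61, of which 0 were called higher and 3 lower.

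**Figure D1:**
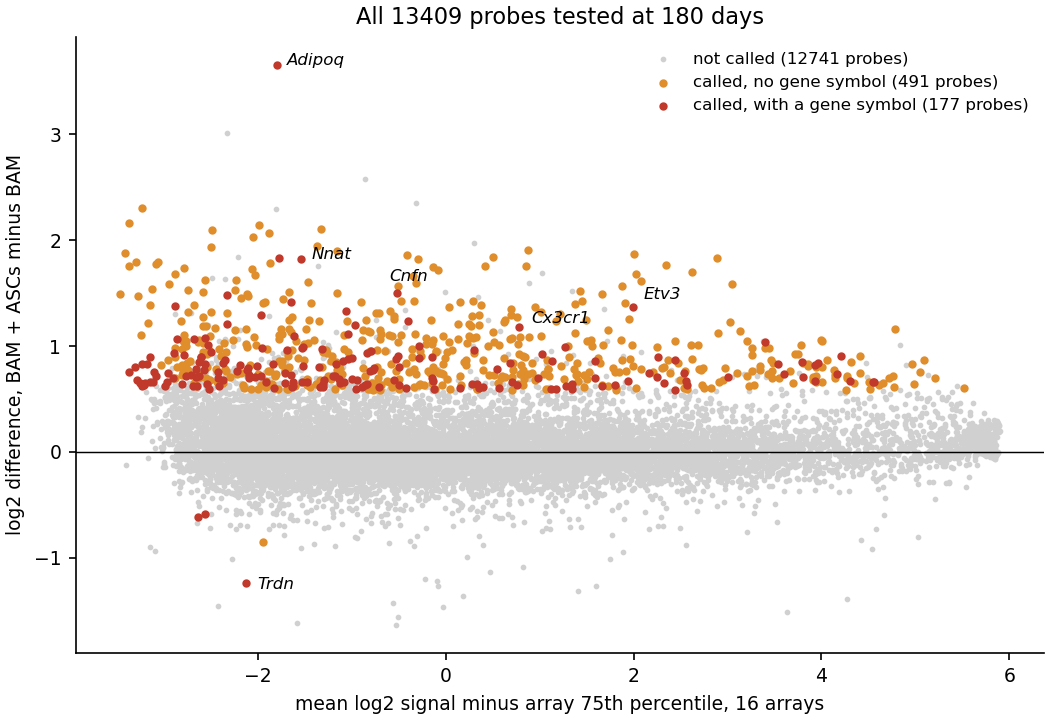
Each dot is 1 of the probes tested at 180 days, with its mean level over the 16 arrays on the horizontal axis and its log2 difference between BAM seeded with ASCs and BAM on the vertical axis. The 668 called probes lie almost all above 0, and among the higher ones those with no gene symbol (orange, 490 probes) outnumber those with one (red, 174 probes).

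Most of the higher probes had no gene symbol. Only 174 of the 664, standing for 172 genes, could be named, which is 1.91% of the 9094 named probes tested, and the other 490 were 11.4% of the 4315 unnamed probes tested. With each gene read by its brightest probe alone, 149 of 7972 named genes (1.87%) were higher. Probes that the array design describes by nothing but their own probe name were called higher in 20.9% of cases (294 of 1408), and probes of curated RefSeq transcripts in 1.84% (174 of 9463). The number of copies of a probe on the array went with this as well. Probes printed once were higher in 9.7% of cases (492 of 5070), those printed in pairs in 2.36% (172 of 7299) and those with 10 copies in none (0 of 1040). Among named probes alone the shares were 2.51% for single copies, 2% for pairs and 0 of 888 for those with 10 copies. Among probes well above background on all 16 arrays, 453 of 11275 (4.02%) were higher and 0 lower. What sets these probes apart was not tested.

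The 10 named genes with the largest rise among those measured well above background on all 16 arrays rose by 2.00-fold to 2.83-fold. They were Cnfn, Etv3, Ppp1r14bl, Lypd2, C1h11orf16, Cx3cr1, Ccnf, Gnal, Cym and Mgat5b. For 9 of them every seeded array lay above every BAM array, as for 62.5% of all higher probes and 4.03% of all probes, and for Cym, which encodes the stomach protease chymosin, 7 of 8 did. Etv3, an ETS family transcription factor, lay between 2.30 and 3.07 with ASCs (median 2.63) and between 1.12 and 1.52 with BAM (median 1.30). The groups did not overlap, and Etv3 rose by 1.37 on the log2 scale (SE 0.14, adjusted p = 6.85e-12). Ccnf, the F-box protein cyclin F, lay between -0.87 and -0.21 (median -0.52) against -1.82 to -1.45 (median -1.56) and rose by 1.12 (SE 0.14, adjusted p = 1.47e-09). Gnal, the alpha subunit of an olfactory type G protein, rose by 1.09 (SE 0.13, adjusted p = 4.99e-10), while a dimmer probe of the gene that was not tested differed by -0.45. Cx3cr1, the fractalkine receptor of monocytes and macrophages, lay between 0.42 and 2.00 (median 1.44) with ASCs and between -0.24 and 0.37 (median 0.22) with BAM, a rise of 1.18 (SE 0.21, adjusted p = 1.54e-05). Ppp1r14bl, which resembles an inhibitor of protein phosphatase, rose by 1.33 (SE 0.15), C1h11orf16, an open reading frame, by 1.20 (SE 0.19), Cym by 1.03 (SE 0.18) and Mgat5b, a glycosyltransferase, by 1.00 (SE 0.18).

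In Cnfn and Lypd2 a pair of seeded rats carried much of the size. Cnfn, which encodes cornifelin of the cornified envelope, lay at 2.94 and 2.30 in replicates 5 and 6 of BAM seeded with ASCs and between -0.74 and -0.35 in the other 6. All BAM arrays lay lower, between -1.45 and -1.04. The log2 difference was 1.499 (SE 0.40, adjusted p = 0.00483), and Cnfn was no longer called without replicate 5 (1.11, adjusted p = 0.0283) or without replicate 6 (1.20, adjusted p = 0.0268). Lypd2, of the Ly6 family, stood at 2.23 and 1.54 in the same rats and between -0.50 and -0.01 in the other 6, against -1.27 to -0.68 with BAM. It rose by 1.24 (SE 0.25, adjusted p = 0.00013). In a fit of the 16 arrays alone neither gene was called, with an adjusted p of 0.0503 for Cnfn and 0.0234 for Lypd2. Cnfn was also not called without BAM replicates 7 and 8 (0.0115), with no filter (0.011) or with 1 probe per gene (0.0101). Krt5, a keratin of basal urothelium and of squamous epithelium, also had its highest levels, 4.55 and 3.73, on these 2 arrays, and Krt13, a keratin of stratified epithelium, was at 2.40 and 1.98 there and at -3.40 or lower on the other 14. Krt13 was named after its values were seen and was too dim on most arrays to be tested.

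All 4 lower probes are named here, which the rule for named genes did not ask for. None of them was well above background on all 16 arrays. Trdn, triadin of the calcium release complex of striated muscle, lay between -3.59 and -1.57 with ASCs (median -3.04) and between -2.98 and -0.73 with BAM (median -1.28). It fell by 1.24 on the log2 scale (SE 0.33, adjusted p = 0.00605) and kept its call in 6 of 16 fits that left out 1 array. The other 3 kept theirs in 11 (Slc18a2), 8 (Zfp870) and 5 (A_64_P164351) of the 16. Slc18a2, the vesicular monoamine transporter, fell by 0.62 (SE 0.16, adjusted p = 0.00283), with 7 of 8 seeded arrays below every BAM array. Zfp870, a zinc finger protein, fell by 0.59 (SE 0.15, adjusted p = 0.00297), and an unnamed probe, A_64_P164351, fell by 0.85 (SE 0.23, adjusted p = 0.00701).

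Of the genes that mark fat cells, that of adiponectin alone was called. Of 30 genes of adipocyte identity, 26 had a named probe and 16 of these passed the filter on dim probes. Adipoq was the 1 gene called higher and none was called lower, against 1.87% higher and 0.0376% lower of all 7972 named genes, each read by its brightest probe. The median log2 difference of the 16 genes was 0.37, against -0.01 over all named genes, and 13 of 16 had a positive difference, against 48.7% of all named genes. Adipoq, Retn and Thrsp passed the filter through the seeded arrays alone, and of the 13 genes well above background on all 16 arrays 10 had a positive difference, with a median of 0.22. The mean level over the 26 genes lay between -1.42 and -0.14 with ASCs (median -0.98) and between -2.08 and -1.01 with BAM (median -1.65), so that 5 of 8 seeded arrays lay above every BAM array. In a bulk wall, fewer cells of a type and less RNA per cell cannot be told apart.

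Adipoq encodes adiponectin, a hormone made by mature adipocytes. Its level lay between -1.34 and 1.70 in BAM seeded with ASCs (median -0.09) and between -6.33 and 0.28 in BAM (median -4.08). All 8 seeded arrays were well above background and 3 of 8 BAM arrays were. The BAM arrays fell apart, with replicate 3 at 0.28 and replicate 1 at -1.63, next to the seeded arrays, and the other 6 at -3.50 or lower. The log2 difference was 3.66 (SE 1.03, adjusted p = 0.00875), a 12.6-fold rise of which the dim BAM arrays make the size uncertain. The call stood close to the threshold, and 12 of the 16 fits that left out 1 array gave an adjusted p between 0.0116 and 0.0284. It was kept without BAM replicate 1 or 3 and without seeded replicate 4 or 7. The difference itself ranged from 3.27 to 4.22 over the 16 fits. Without BAM replicates 7 and 8 it was 3.53 (adjusted p = 0.0283).

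Other fat genes had differences of the same sign that missed the thresholds. Retn, Rbp4 and Thrsp were picked from the list after their values were seen, as were all genes named below that were neither called nor named above as defining genes of a cell type. Retn encodes resistin, another hormone of rodent fat, and lay between -2.60 and -0.13 with ASCs (median -0.59) and between -6.35 and -0.77 with BAM (median -4.26). Its log2 difference was 3.01 (SE 0.95, adjusted p = 0.0221), and BAM replicates 3 and 1 again held the 2 highest BAM levels. In a fit of the 16 arrays alone Retn and Thrsp were called higher. Rbp4, the retinol binding protein secreted by liver and fat, differed by 1.51 (SE 0.61, adjusted p = 0.0961). Thrsp, a regulator of lipid synthesis, differed by 1.64 (SE 0.66, adjusted p = 0.0995). Cfd, adipsin, lay between 2.73 and 4.02 against 2.36 to 3.61, a difference of 0.73 (SE 0.30, adjusted p = 0.11).

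Most other genes of the list had smaller differences, some of them negative (Slc2a4, the insulin-responsive glucose transporter, -0.36, and Dgat2, an enzyme of triglyceride synthesis, -0.14). Fabp4, a fatty acid carrier also found in endothelium and macrophages, differed by 0.34 (SE 0.25, adjusted p = 0.444). Pparg, which encodes PPARγ, lay at 2.90 ± 0.28 with ASCs and 3.19 ± 0.18 with BAM (SD, n = 8 each), a difference of -0.29 (SE 0.26, adjusted p = 0.556). A further 3 defining genes were too dim to be tested. Lep, leptin, was well above background on 0 of 8 seeded and 1 of 8 BAM arrays. Cidec, a protein of the lipid droplet, was above background on 2 of 8 arrays in each group, and Lipe, hormone-sensitive lipase, on 4 of 8 in each. Plin1, perilipin 1, had no named probe.

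**Figure D2:**
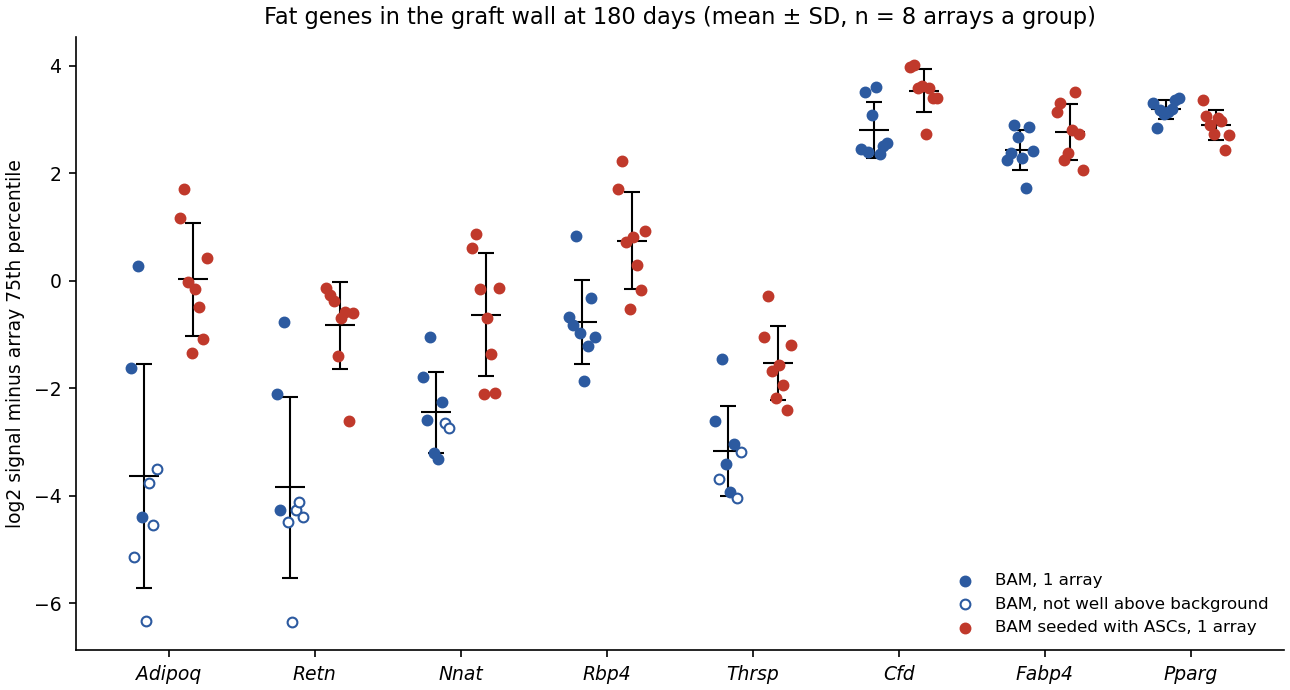
Levels of 8 fat genes on each array at 180 days (dots, open where the probe was not well above background), with the mean and SD of 8 arrays a group, on the log2 scale with 0 at the array's 75th percentile. For Adipoq and Retn most BAM arrays lie at -3.50 or lower while the seeded arrays lie at -2.60 or higher, and for Fabp4 and Pparg the groups overlap.

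Among 20 regulators of adipogenesis, 13 were tested and Nnat alone was called, against 1.87% of all named genes called higher. Nnat, neuronatin, is a small membrane protein made in brain and fat. It lay between -2.11 and 0.88 with ASCs (median -0.42) and between -3.32 and -1.04 with BAM (median -2.61), and rose by 1.82 (SE 0.50, adjusted p = 0.00768). Its call held in 5 of the 16 fits that left out 1 array, and the others gave an adjusted p between 0.0107 and 0.0306. It was also lost in 6 other settings, with an adjusted p of 0.0105 to 0.0276. Fgf1, a growth factor, differed by 0.48 (SE 0.15, adjusted p = 0.0177) and Sfrp1, a secreted inhibitor of Wnt, by 0.61 (SE 0.21, adjusted p = 0.0365), and both missed the thresholds. The median of the 13 genes was 0.16. Of the 13 genes, 4 passed the filter through the seeded arrays alone, Nnat and Sfrp1 among them. Of the other 9, 7 had a positive difference, with a median of 0.16.

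None of the enzymes of lipid synthesis and oxidation was called. Of 30 genes 21 were tested, 7 had a positive difference, and the median was -0.07. The smallest adjusted p-values were on the lower side. Me1, malic enzyme, lay between 0.52 and 1.30 with ASCs and between 1.102 and 2.26 with BAM and differed by -0.66 (SE 0.20, adjusted p = 0.015). In a fit of the 16 arrays alone Me1 was called lower. Acly, ATP citrate lyase, differed by -0.37 (SE 0.11, adjusted p = 0.0183). Acsl1, an acyl-CoA synthetase, differed by 0.77 (SE 0.30, adjusted p = 0.0789). Of 9 genes of brown fat, Cidea was tested, with a difference of 0.48 that was not called, and 3 were not well above background on any array.

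The promoters of Adipoq and Retn are shown because these 2 genes had the largest differences among the fat genes. The sequences are those of RefSeq, build GRCr8, and hold the 250 bases before the start of the gene, 5′ to 3′ on the strand of the gene. Capitals mark AGGTCA, the core motif bound by nuclear receptors, searched on both strands.
Adipoq, chr11:91240170-91240419, minus strand: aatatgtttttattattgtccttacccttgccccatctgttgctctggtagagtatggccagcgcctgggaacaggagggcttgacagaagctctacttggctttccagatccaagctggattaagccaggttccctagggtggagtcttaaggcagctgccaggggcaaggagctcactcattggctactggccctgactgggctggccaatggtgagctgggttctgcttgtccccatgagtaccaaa
Retn, chr12:6508524-6508773, plus strand: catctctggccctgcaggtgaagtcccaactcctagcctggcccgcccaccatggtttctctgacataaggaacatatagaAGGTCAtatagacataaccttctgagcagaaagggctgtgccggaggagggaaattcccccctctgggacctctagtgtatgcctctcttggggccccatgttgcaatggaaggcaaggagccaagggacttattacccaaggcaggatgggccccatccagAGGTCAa
The motif was found 0 times before Adipoq and 2 times before Retn, starting 169 and 7 bases upstream of the start. It occurs in 14.1% of the 33469 windows of this length. A pair of motifs with 1 base between them, AGGTCANAGGTCA, occurs in 17 windows (0.0508%) and in neither of these. Only exact matches were searched, and so few windows hold the pair that its absence here does not tell whether PPARγ binds these genes. Nnat had no window in the table.

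All endothelial genes tested had a small positive difference, and none passed the thresholds, although Kdr and Sox18 did with normexp background correction and Sox18 in a fit of the 16 arrays alone. Of 30 genes of vascular endothelium, 22 were tested, all 22 had a positive difference, and their median was 0.39, with single genes from 0.11 to 0.63. By comparison, 48.7% of all named genes had a positive difference. An adjusted p below 0.05 was reached by 4 of the 22, all higher, against 5.19% of all named genes. An unadjusted p below 0.05 with a higher level was reached by 13 of 22, against 10.6%. The mean level over the 26 genes on the array lay between -0.97 and -0.33 with ASCs (median -0.63) and between -1.23 and -0.76 with BAM (median -1.02), and 6 of 8 seeded arrays lay above every BAM array. Without BAM replicates 7 and 8 the median of the 22 genes was 0.33 and all 22 differences were positive. Of the 22 genes 4 passed the filter through the seeded arrays alone, and the other 18 had a median of 0.37.

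The genes with an adjusted p below 0.05 were Sox18, Kdr, Erg and Vwf. Kdr, the main receptor for vascular endothelial growth factor, lay between 1.98 and 2.59 with ASCs (median 2.34) and between 1.53 and 1.98 with BAM (median 1.78). 7 of 8 seeded arrays lay above every BAM array, and the difference was 0.54 (SE 0.17, adjusted p = 0.0242). Vwf, which tethers platelets to the vessel wall, lay between -0.01 and 1.12 (median 0.37) against -0.31 to 0.25 (median 0.13). It differed by 0.47 (SE 0.17, adjusted p = 0.0486), and a dimmer probe of the gene by 0.38 (adjusted p = 0.334). Sox18, a transcription factor of endothelium, differed by 0.61 (SE 0.19, adjusted p = 0.0224), and Erg, an ETS factor of endothelium, by 0.41 (SE 0.14, adjusted p = 0.0405). With 1 array left out, the adjusted p of Kdr, Sox18, Erg and Vwf ran from 0.0119 to 0.142, so none of the 4 stayed below 0.05 in every such fit.

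The other defining vessel genes had an adjusted p of 0.0501 or more. Cdh5, VE-cadherin of endothelial junctions, differed by 0.63 (SE 0.23, adjusted p = 0.0616), Tek, the angiopoietin receptor, by 0.58 (SE 0.21, adjusted p = 0.0501) and Pecam1, a junction protein, by 0.39 (SE 0.17, adjusted p = 0.121). Emcn, endomucin of capillaries and veins, lay at -0.06 ± 0.26 against -0.17 ± 0.30 (SD, n = 8 each), so the groups overlapped (0.11, SE 0.15, adjusted p = 0.737). Lyve1, of lymphatic endothelium and some macrophages, differed by 0.40 (SE 0.35, adjusted p = 0.536), and of 7 lymphatic genes 4 were tested and 0 called, with a median of 0.28.

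**Figure D3:**
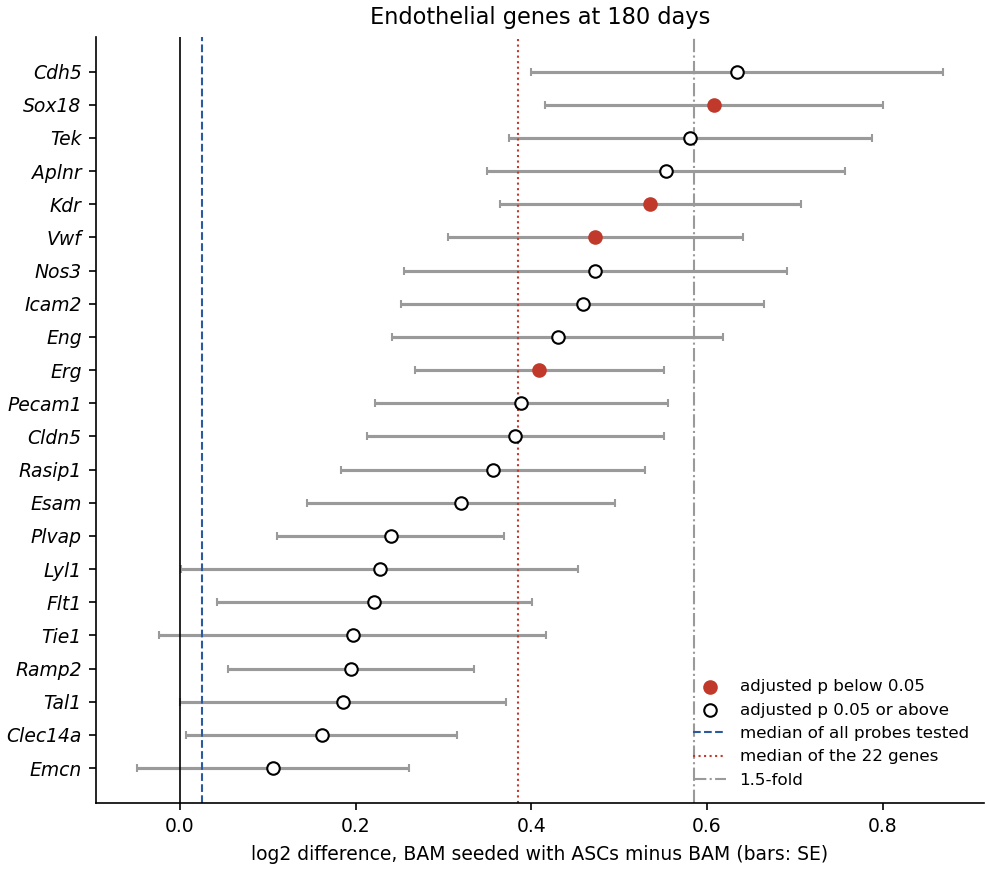
Log2 difference of the 22 endothelial genes tested at 180 days with its SE. All points lie right of 0, between 0.11 (Emcn) and 0.63 (Cdh5), and the 4 filled points have an adjusted p below 0.05, while the median of all probes tested is 0.03.

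In pericytes and mural cells, which wrap the endothelium, Cox4i2 was the 1 called gene of 12 tested, against 1.87% of all named genes called higher. Cox4i2, a subunit of cytochrome c oxidase, lay between 0.68 and 1.08 with ASCs (median 0.85) and between 0.13 and 0.53 with BAM (median 0.25). The groups did not overlap and Cox4i2 rose by 0.60 (SE 0.13, adjusted p = 0.000497), which is just above 1.5-fold. Hence 4 of the 16 fits that left out 1 array put it below that fold with an adjusted p of 0.00187 or less. Notch3, a receptor of mural cells, differed by 0.40 (SE 0.13, adjusted p = 0.021), Higd1b, a pericyte gene, by 0.44 (SE 0.16, adjusted p = 0.0522) and Pdgfrb, the receptor that recruits pericytes, by 0.18 (SE 0.19, adjusted p = 0.616). The median of the 12 genes was 0.14. Notch3 passed the filter through the seeded arrays alone, and the other 11 genes had a median of 0.11.

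Angiogenic ligands and receptors included 21 tested of 30 genes, some of which the endothelial list also holds. None was called, 19 had a positive difference and the median was 0.22, while 48.7% of all named genes had a positive difference. Of the 21 genes, 6 passed the filter through the seeded arrays alone. Of the other 15, 13 had a positive difference, with a median of 0.20. Notch4, a Notch receptor of endothelium, differed by 0.62 (SE 0.20, adjusted p = 0.0281). The ligand Vegfa differed by 0.20 (adjusted p = 0.534).

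Genes of smooth muscle and urothelium had mostly negative differences, and none was called. Of 17 smooth muscle genes tested 0 were called, 15 had a negative difference and the median was -0.29. Acta2, smooth muscle actin, lay at 3.40 ± 0.65 with ASCs and 3.29 ± 0.37 with BAM, and Myh11, smooth muscle myosin, at 5.48 ± 0.28 and 5.44 ± 0.38 (SD, n = 8 each), with 12 of 16 Myh11 readings saturated. Differences of 0.11 (SE 0.25) and 0.04 (SE 0.30) were within the spread, and that of Myh11 was -0.03 after quantile normalization and -0.32 on a dimmer probe of the gene. Among striated muscle genes, 12 of 25 on the array were tested, 8 of the 12 had a negative difference and the median was -0.09. Mb, myoglobin, was the 1 gene called higher, against 1.87% of all named genes, and none was called lower. Mb rose by 0.66 (SE 0.18, adjusted p = 0.00738), and its call held in 8 of the 16 fits that left out 1 array. Acta1, skeletal actin, differed by 0.95 (SE 0.37, adjusted p = 0.0771) and Ckm, muscle creatine kinase, by -0.20 (SE 0.41, adjusted p = 0.823).

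Of 14 urothelial genes tested, 12 had a negative difference, the median was -0.31 and 0 were called. Upk2, a uroplakin of the luminal plaques, lay between 3.46 and 4.89 with ASCs (median 3.99) and between 4.47 and 5.70 with BAM (median 4.92). Of the 8 seeded arrays, 6 lay below every BAM array. The difference was -0.91 (SE 0.58, adjusted p = 0.351). Over the other settings and fits the adjusted p of Upk2 ran from 0.0139 to 0.557, and it was called in none. Krt20, a keratin of umbrella cells, differed by -1.62 (SE 0.56, adjusted p = 0.0453) and was called lower in a fit of the 16 arrays alone. It was well above background on 6 of 8 seeded and 8 of 8 BAM arrays, so it passed the filter through BAM alone. Krt5 differed by 0.18 (SE 0.56, adjusted p = 0.884), and by -0.19 without seeded replicate 5 and -0.08 without seeded replicate 6. These cell types make up parts of the same RNA as fat and vessels, and their part in the differences of fat and vessel genes was not tested.

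The remaining lists hold no DEG. Macrophage genes had 15 of 15 positive differences with a median of 0.21, erythroid genes 6 of 6 with 0.18 and T cell genes 8 of 9 with 0.28. Among all named genes 48.7% had a positive difference. Of the 15 macrophage genes, 2 passed the filter through the seeded arrays alone, and the other 13 were all positive. Of the 9 T cell genes, 4 passed the filter through the seeded arrays alone and the negative one through BAM alone, and the 4 measured on all 16 arrays were positive. The matrix genes had a median of 0.08 over 16 genes, mesenchymal stromal markers 0.02 over 14 and housekeeping genes 0.06 over 14. The other medians were 0.16 for MHC class II (5 of 6 positive), -0.03 for the Hippo pathway (7 of 15) and -0.08 for Schwann cells and nerve (2 of 9). They were -0.10 for tight junctions (5 of 13), -0.10 for cytochrome P450 and xenobiotic metabolism (6 of 23), and -0.19 for Hedgehog signaling (0 of 5). Lists with fewer than 4 genes tested were mast cells (3, median -0.72), mesothelium (3, -0.18), neutrophils (2, -0.44), B and plasma cells (2, 0.31) and male accessory glands (0 of 13 on the array).

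**Figure D4:**
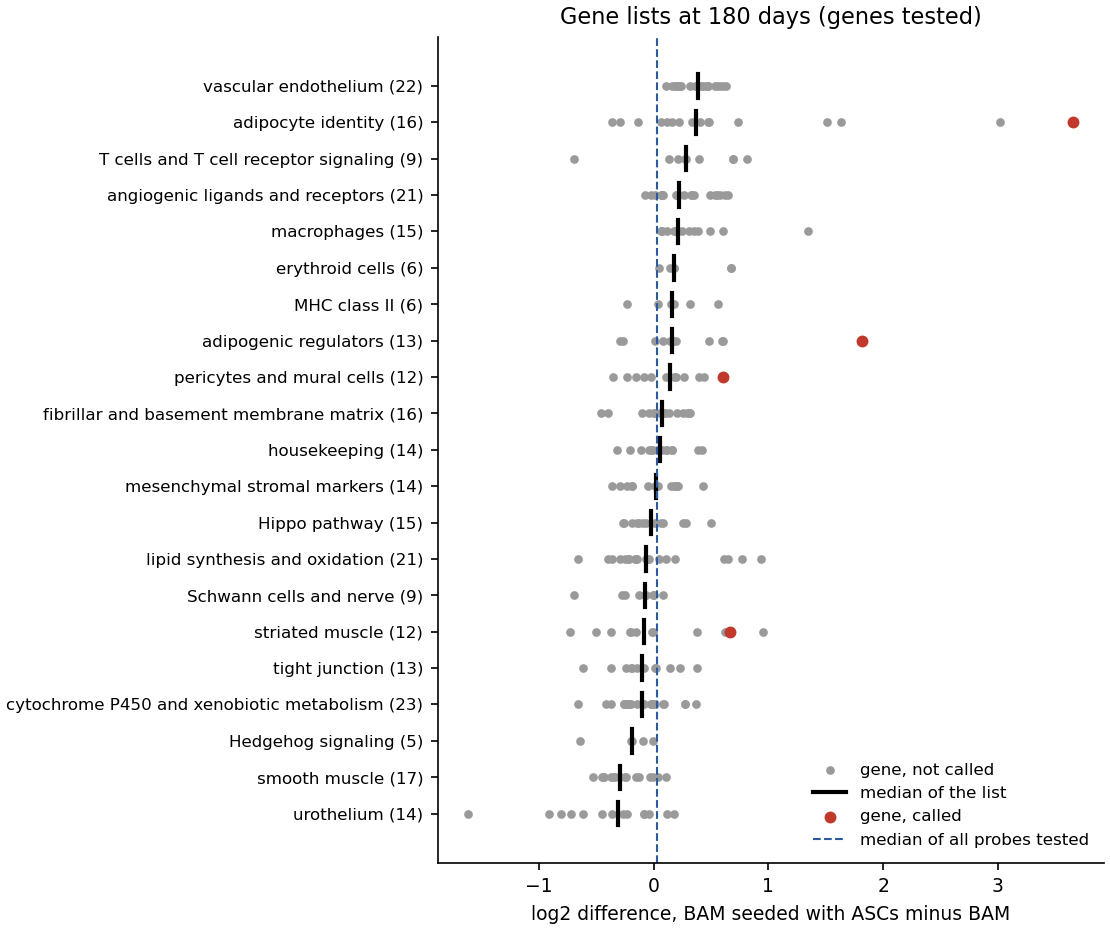
Log2 differences at 180 days of the genes tested in each list with 5 or more such genes (dots) and their median (bar). The vascular endothelium, macrophage and erythroid lists lie wholly to the right of the median of all probes. The adipocyte list has a long right tail that ends in Adipoq at 3.66, and smooth muscle and urothelium lie mostly to the left.

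The effect of seeding at 180 days differed from that at 90 days in many genes, for which the 16 arrays of 90 days served as the comparison. These are other rats, on other slides. The difference between the 2 effects passed the same thresholds for 1224 probes in the positive direction (9.13%) and 1166 in the negative direction (8.7%). Of the 664 probes that were higher with ASCs at 180 days, 583 were among the former and 0 among the latter. The difference at 180 days enters both counts, so this adds no separate support. At 90 days, 667 of the same 13409 probes (4.97%) were lower and 1079 (8.05%) higher with ASCs, and 374 probes were both higher at 180 and lower at 90 days, which is 56.3% of the first set and 56.1% of the second. The 664 probes had a median difference of -0.37 at 7 days, 0.05 at 30 days and -0.74 at 90 days. The median level of these probes lay between -0.20 and 0.17 on the seeded arrays of 180 days and between -0.72 and -0.10 on the BAM arrays of 90 days. On the seeded arrays of 90 days it lay between -1.41 and -0.81, and on the BAM arrays of 180 days between -1.14 and -0.92. The groups were taken as labelled. Whether slides were exchanged between groups of these days was not tested, and an exchange at 180 days would turn the sign of every difference given here.

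**Figure D5:**
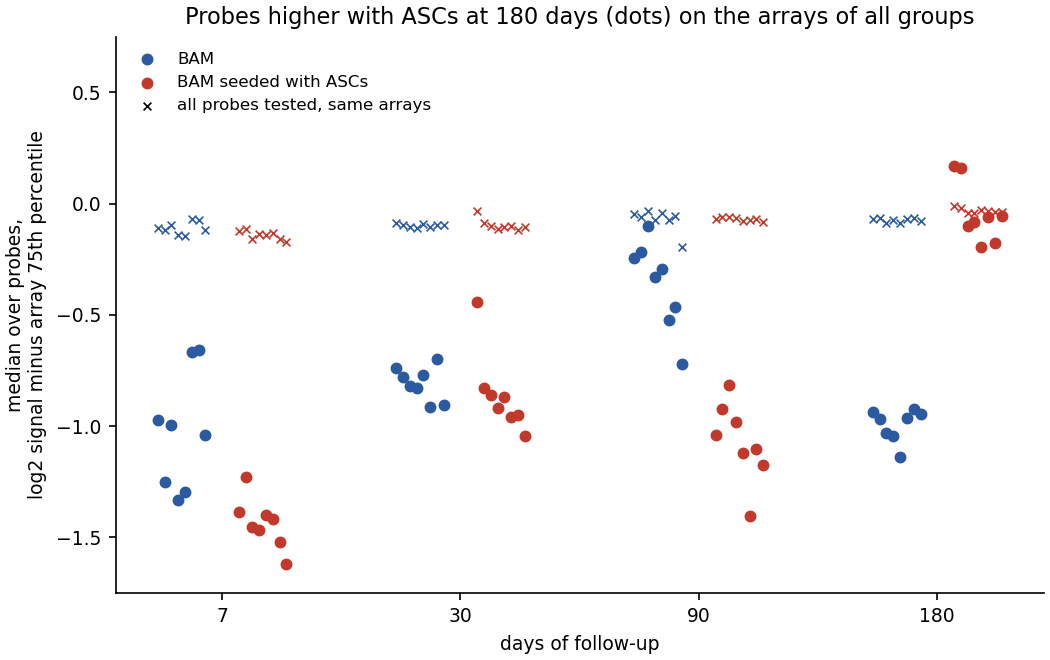
Median level of the 664 probes that were higher with ASCs at 180 days (dots) and of all probes tested (crosses) on each array, by days of follow-up and graft. Among the arrays of 90 and 180 days, the seeded arrays of 180 days and the BAM arrays of 90 days lie highest. The other arrays of those days lie at -0.81 or lower. The BAM arrays of 90 days go down to -0.72 and overlap with arrays of earlier days, of which the highest lies at -0.44. Since 180 days chose the probes, the gap at 180 days is no test.

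Of the 16 fat genes tested, 3 passed the test of the difference between the days (Adipoq, Retn and Cfd, all positive), against 9.13% positive and 8.7% negative among all probes. The 180-day values by which most of these genes and Nnat were picked enter this test. Their differences at 90 days were negative and were not called there, with an adjusted p of 0.279 for Adipoq, 0.085 for Retn, 0.268 for Nnat and 0.0315 for Cfd. Adipoq differed by -1.45 at 90 days, and the effect at 180 days exceeded it by 5.11 (SE 1.44, adjusted p = 0.00389). For Retn the difference at 90 days was -2.04 and the excess 5.05 (SE 1.33, adjusted p = 0.00191), for Nnat -0.73 and 2.55 (SE 0.71, adjusted p = 0.00332) and for Cfd -0.80 and 1.53 (SE 0.43, adjusted p = 0.00339). The median of the 16 fat genes was 0.10 at 7 days, -0.44 at 30 days and -0.22 at 90 days. The excess for Fabp4 was 0.02 (SE 0.35, adjusted p = 0.972).

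Of the vessel genes, 2 of 22 passed the test of the difference between the days, both in the positive direction, which is about the share among all probes (9.13%). Cdh5 differed by -0.87 at 90 days (excess 1.503, SE 0.33, adjusted p = 0.000215) and Vwf by -0.45 (excess 0.92, SE 0.23, adjusted p = 0.00133). Kdr differed by -0.20 at 90 days (excess 0.74, SE 0.24, adjusted p = 0.0126). The median of the 22 genes was -0.53 at 7 days, 0.13 at 30 days and -0.00 at 90 days, where 11 of 22 had a positive difference.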

How the data were processed

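RNA of the graft wall, parted from native bladder and kept at an integrity number above 7 according to the study's methods, was hybridised to 1-colour (Cy3) Agilent rat arrays. The authors extracted the spots with Agilent Feature Extraction 12.0.1.1, per the file headers, and deposited for each array the processed signal, a background-subtracted intensity, with flags for background, saturation and outliers. The deposited series matrix holds the processed signal of the same spots, not on a log scale. It served as an alternative only, since 26650 spots are empty in its column of BAM replicate 1 at 180 days. The number of arrays limits the precision.

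The processed signals were taken to log2 and centred, array by array, on the 75th percentile of the non-control spots. Spots flagged as outliers were left out and copies of a probe averaged. Of 30367 gene probes, 18758 could be named through RefSeq accessions (table of assembly GRCr8), for 15715 genes. Probes with a share of 0.5 or more of their spots well above background on all 8 arrays of 1 or both groups were tested (13409), and 14 of them had 1 missing value. limma 3.58.1 fitted 8 group means to all 64 arrays (lmFit, eBayes), and p-values were adjusted after Benjamini-Hochberg over all probes tested. The thresholds and the model over all groups follow the study's methods, a two-way analysis of variance, which was run as an alternative. A gene is represented by its probe with the highest mean over the 16 arrays. Simulated arrays with 200 changed probes served to test the fit.

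Named are the 10 largest rises and up to 5 largest falls among called named genes well above background and unsaturated on all 16 arrays, up to 3 called members of each list, and the defining genes of fat, vessels, smooth and striated muscle and urothelium (Plin1, which has no named probe, among them). Any other gene was named after its values were seen. The comparison, the members and all gene lists were chosen with earlier results of these data known. Gene lists are described by counts and medians, with no test. The labels give separate rats, and other background correction, normalization, filters, thresholds, fits, a replicate block and leaving out each array were tried. Arrays of 1 group correlated with r between 0.949 and 0.989, and no array was a copy of another. Replicate numbers equal the position on the slide and do not pair rats.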

Additional observations from a re-analysis of the deposited data

Results flagged for a closer look

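In 122 groups of 8 arrays an array far from the others was searched for. The groups held single genes, the mean levels of the adipocyte and endothelial lists, the share of spots well above background and the median of the higher probes. Such an array was found in 5 groups, all of them on single genes or probes, while chance gives about 1 in 20 groups. The size of the gap is given as a share of the range of the group. Gnal in BAM seeded with ASCs was lowest in replicate 6, at -1.40 (share 0.532), and the unnamed probe A_64_P164351 was lowest in replicate 7 of that group, at -3.08 (share 0.568). In BAM, Ckm was lowest in replicate 5, at -1.25 (share 0.606). Replicate 3 of BAM was highest in Gpd1, glycerol 3-phosphate dehydrogenase of fat and muscle (-1.20, share 0.746), and in Me1 (2.26, share 0.577). The same rat had the highest BAM level of Adipoq, Retn and Nnat.

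The effect of seeding at 180 days differed from that at 90 days, by the test of the difference at an adjusted p below 0.01 and over 1.5-fold, in 24 of 51 named genes tested, against 9.13% of all probes in the positive and 8.7% in the negative direction. Most of the 51 genes were named for their values at 180 days, which enter this test, so the count adds no separate support. Among the genes with the largest rise the effect at 180 days exceeded that at 90 days by 1.95 for Cnfn, 2.99 for Etv3, 2.14 for Ppp1r14bl, 2.11 for Lypd2, 1.32 for C1h11orf16, 2.10 for Ccnf, 1.62 for Gnal and 2.18 for Mgat5b on the log2 scale (limma, adjusted p from 8.09e-20 for Etv3 to 0.00432 for Cnfn). For Cx3cr1 and Cym, which were also higher with ASCs at 90 days (0.56 and 0.66), the excess was 0.62 and 0.38 and did not pass. Among fat genes it was 5.11 for Adipoq, 5.05 for Retn, 2.55 for Nnat, 1.53 for Cfd, 1.45 for Acsl1 and 1.25 for Fgf1. Among vessel genes it was 1.503 for Cdh5, 0.92 for Vwf, 1.40 for Cox4i2 and 0.80 for Higd1b. It was negative for Me1 (-0.997), Krt20 (-2.91), Mcpt1, a mast cell protease (-3.41), Slc18a2 (-1.25), Zfp870 (-0.92) and A_64_P164351 (-1.81). Each of the 4 groups behind these values lay on a slide of its own, so slide, day and graft cannot be told apart, and the part of the slide was not tested.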

How the results depend on the processing

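Numbers of higher probes stayed within 1.5 times of 664 in the other settings (448 to 753), apart from 128 with 1 probe per named gene and 211 at 2-fold. The 4 lower probes became 2 with normexp, 8 with quantile normalization, 13 with the percentile of detected probes, 13 with no filter, 0 with probes well above background on all 16 arrays, 17 in a fit of the 16 arrays alone, 2 with 1 probe per named gene, 30 at an unadjusted p, 25 at an adjusted p below 0.05 and 1 at 2-fold. Leaving out 1 array gave 571 to 698 higher and 0 to 10 lower probes. The percentile of detected probes moved the median of all probes from 0.03 to -0.03. Adipoq kept its sign in all settings, and missed the threshold with normexp (2.46, adjusted p = 0.0203), the percentile of detected probes (0.0102), no filter (0.0192), analysis of variance (0.0113) and 1 probe per named gene (0.0167). Cox4i2 fell under 1.5-fold with normexp (0.55) and the percentile of detected probes (0.55). Mb missed the thresholds in 8 other settings and Nnat in 6. Besides Sox18, some named genes that were not called passed in a fit of the 16 arrays alone. These were Retn, Thrsp and Acta1 as higher and Me1 and Krt20 as lower. Me1 also passed as lower with the percentile of detected probes. Of the lower probes, Slc18a2 missed them in 3 other settings, Trdn in 4, Zfp870 in 5 and A_64_P164351 in 5 (2-fold included). Signs turned for Myh11 with normexp (-0.0042), quantile normalization (-0.0258), the percentile of detected probes (-0.0154) and the series matrix (-0.0202). Leaving out 1 array gave -0.0199 to 0.15 for Myh11, -0.0057 to 0.25 for Acta2 and -0.19 to 0.51 for Krt5. With the replicate number as a block, 663 probes were higher and 5 lower, and 653 of the 664 remained. Same-numbered arrays correlated in their deviations with r from -0.262 to 0.196, and 1 of 16 arrays correlated best with its own number, so the numbers do not pair rats. The vessel list held 22 of 22 positive differences in all settings with 22 genes, and 18 of 18 on probes measured on all 16 arrays. Probes near background (the BAM arrays of Adipoq and Retn) and saturated ones (Myh11) limit the sizes of those differences.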

Other observations

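Groups of gene symbols were picked after their values were seen and so are given with no test. Of 22 probes tested for olfactory and vomeronasal receptors, of 1328 on the array, 6 were called higher (Or4d6, Or4g16, Or5aq1d, Or6al1, Or6al2 and Vom1r61). Of 25 probes of keratins and keratin-associated proteins, 6 were higher (Krt33b, Krt79, Krt80, Krtap10-10l1, Krtap10-10l2 and Krtap10-2). Most of these are genes of nose or of hair, nail and skin. By comparison 1.91% of all named probes were higher. Of 103 probes of zinc finger proteins 3 were higher and 1 lower, and of 28 histone probes 2 were higher. Cytochrome c oxidase subunits gave 3 of 21, namely Cox4i2, Cox6b2 and Cox7c.

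Of 10 mast cell genes, 3 were tested and none was called. Mcpt1 lay between -2.53 and 1.55 with ASCs (median -1.06) and between -3.005 and 3.48 with BAM (median 1.00), a difference of -1.47 (SE 0.70, limma adjusted p = 0.183). Cpa3, mast cell carboxypeptidase, lay between -3.57 and -1.41 (median -3.27) against -3.27 to -1.17 (median -2.37), a difference of -0.72 (SE 0.36, limma adjusted p = 0.197). Cma1, chymase, differed by -0.04 (limma adjusted p = 0.965). Of the 7 dim genes, Tpsab1 and Tpsb2, which encode tryptases, differed by 0.36 and 0.25, and the other 5 by -0.39 (Kit) to -1.58 (Fcer1a).

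Aqp7 and Gpd1, both of the adipocyte list, were too dim to be tested. Aqp7 was well above background on 4 of 8 seeded arrays and on 0 of 8 BAM arrays, and Gpd1 on 7 and on 3.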
